A study of Schizosaccharomyces pombe with 16 samples.

Results

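Exon-skipping junction probes are array probes whose sequence joins 2 exons of a gene that are not neighbours, so that they read an RNA from which the exons in between are missing. They were taken from a splicing-sensitive 2-colour Agilent array of Schizosaccharomyces pombe (fission yeast) as every junction probe whose name gives exon numbers more than 1 apart, with no measured value used in the choice. There were 402 of them among 15207 probes, in 275 genes. A probe is called here by its gene and the exons it joins, so trm13 1-3 joins exon 1 to exon 3. The array also holds 4697 probes across the junctions of neighbouring exons and 4885 intron probes.

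The study compared 4 strains with altered Rpb1, the largest subunit of RNA polymerase II, with a strain labelled WT. The altered part is the C-terminal domain, a tail of repeated 7-residue units called heptads. In every mutant 18 repeats called the rump precede 14 altered heptads, so the mutants share the rump and differ in the letters that follow. The heptad is YSPTSPA in S7A, where alanine takes the place of serine 7, YAPTSPS in S2A, YAPTSPA in the double mutant S2A/S7A, and YSPTSPE in S7E, where glutamate takes its place. The sources used here give no more of the genotype of WT than that name. Cells were grown in YES, a rich medium, to mid-log phase, and total RNA of a mutant and of WT was put on each array in opposite colours. There were 4 arrays of S7A, 4 of S2A, 5 of S2A/S7A and 3 of S7E, from separately grown replicates. Cy5 labelled the mutant on 7 arrays and Cy3 on the other 9, and each mutant had arrays of both orientations.

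In fission yeast many genes carry short introns that the spliceosome removes one by one, with each intron recognised as a unit, and exon skipping is not a common form of regulation. The phosphorylated C-terminal domain is known to bind factors that cap, splice and end the transcript while polymerase II makes it. A probe across a skipping junction can in principle also bind an RNA that matches only one side of it, such as the normally spliced RNA that holds either exon, so its value need not come from skipped RNA alone. Signals in the single colours were not used here, so whether a probe stood above background is not known here.

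Each value is a log ratio of mutant over WT, and base 2 and that direction are the likely reading of the deposited values rather than a stated one. From each skipping probe the mean of the exon probes of its gene was subtracted on the same array. The resulting skipping value, on the log2 scale, is above 0 where the skipping probe stood higher, against WT, than the exon probe did. Of the 402 probes, 371 in 253 genes had a value on at least 2 arrays of every mutant and were tested, and 277 had one on all 16 arrays. The other 31 had values on 0 to 12 arrays and were not tested. A probe is called when limma's moderated test of the mutant mean against 0 passed 0.05 after Benjamini-Hochberg adjustment across the 9244 skipping, junction and intron probes tested. Precision is limited by how many arrays a mutant has. If arrays shared WT RNA, a test of a ratio against 0 leaves out the spread among WT cultures. The sources used here do not say whether 1 WT culture served several arrays.

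The probes differ in how many exons they leave out and where. Of the 402, 250 leave out 1 exon, 95 leave out 2 and 57 leave out 3 or more, with 7 as the most. Exon 1 is joined by 190 probes, and 121 leave out exon 2 alone. The exon probe used as the reference lay inside the skipped span for 82 probes, in the exon on the left end for 46, in the exon on the right end for 149 and outside the span for 125. Most genes, 206, had 1 skipping probe, 69 had several, and clr6 had the most with 8.

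Before the results, 3 arrays must be set apart. Over all probes of the table, arrays of the same mutant correlated at 0.839 to 0.966 when these 3 were left aside. S7A replicate 4 correlated with the other S7A arrays at 0.570 to 0.719, S2A replicate 4 with its group at 0.605 to 0.667, and S7E replicate 1 with its group at 0.557 to 0.581. S7E replicate 1 stood apart most in the skipping probes themselves. Its median absolute deviation of the skipping value was 0.742 on the log2 scale, against 0.195 to 0.383 on the other 15 arrays, while that of its neighbouring-exon junctions was 0.200. The counts and main values of S7E below are therefore given with and without that array.

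In S7A the skipping probes stood higher than the exon probes of their genes as a group. The median skipping value of the 4 S7A arrays was 0.28, 0.26, 0.23 and 0.20 on the log2 scale, a mean of 0.242 ± 0.0318 (SD, n = 4). All 4 arrays lay above 0, both those with the mutant in Cy5 and those with it in Cy3. Between 83.2% and 90.0% of the tested skipping probes with a value were above 0 on each S7A array. On the same arrays the 985 tested neighbouring-exon junctions of the same genes had medians of 0.06, 0.02, 0.03 and 0.08, below the skipping probes on every array. The RNA came from whole cultures, so a change in how many cells hold an RNA and a change per cell cannot be told apart.

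**Figure D1:**
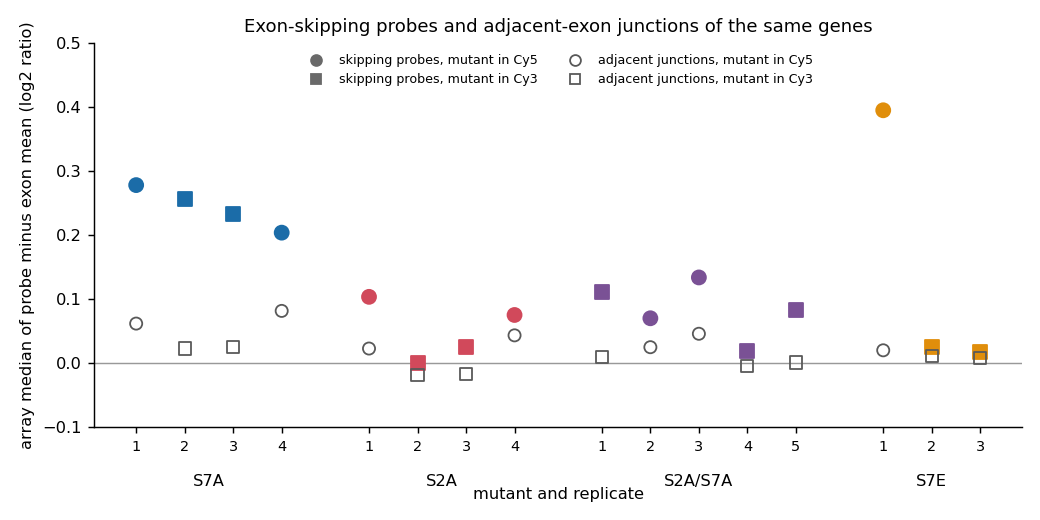
Median log2 ratio after subtraction of the exon mean, for each of the 16 arrays, grouped by mutant. Filled symbols are the skipping probes and open symbols the neighbouring-exon junctions of the same genes, with circles for the mutant in Cy5 and squares for the mutant in Cy3. The 4 S7A arrays lie between 0.204 and 0.278, and S7E replicate 1 at 0.395 lies far from the other S7E arrays.

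Probe by probe, limma called 150 of the 371 skipping probes higher in S7A (40.4%) and 3 lower. Over all 9244 probes tested, 11.0% were called higher and 15.4% lower in S7A, so the share of skipping probes called higher was well above that of the array. The median fitted value of the 371 probes was 0.24, and 338 of them were above 0. Of the 4428 neighbouring-exon junctions tested, 576 (13.0%) were called higher and 102 lower, with a median of 0.06, and of the 4445 intron probes 288 were called higher and 1317 lower, with a median of -0.11. Skipping probes thus moved up where intron probes, on balance, moved down. The 150 probes lie in 118 genes.

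The S7A count depended on which array was left out. It was 97 probes in either direction without S7A replicate 2, against 153 with all arrays (26.4% of all probes either way). It was 206 of 351 without S7E replicate 1, which enters the shared estimate of the spread. In that fit 57.5% of the skipping probes and 14.0% of all probes were called higher in S7A. Without S7A replicate 4, the S7A array that stood apart, 138 were called higher and 2 lower, of which 127 and 2 were among those called with all arrays.

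In S2A the shift was small. The array medians of the skipping value were 0.10, -8.59e-05, 0.03 and 0.08 (mean 0.0510 ± 0.0470 SD, n = 4), so 1 of 4 arrays had its median at 0. limma called 49 of 371 skipping probes higher and 23 lower, against 13.1% and 13.3% of all probes. At 13.2% the share called higher was near that of all probes. It was above that of neighbouring-exon junctions, of which 7.18% were called higher and 8.8% lower, and below the 19.1% of intron probes. Without S2A replicate 3 the count in either direction was 46, against 72 with all arrays (26.5% of all probes), and without S7E replicate 1 it was 114.

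In S2A/S7A the array medians were 0.11, 0.07, 0.13, 0.02 and 0.08 (mean 0.0833 ± 0.0440 SD, n = 5), all above 0. limma called 70 skipping probes higher and 23 lower, where 12.5% and 18.8% of all probes were called. The share called higher was 18.9%, above the background by less than in S7A. Of neighbouring-exon junctions 9.49% were called higher and 6.37% lower. Without S7E replicate 1 the count in either direction rose from 93 (31.3% of all probes) to 143. S2A/S7A carries the serine 7 change of S7A too, yet its array medians did not overlap those of S7A.

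In S7E the 3 arrays did not act as one group. Replicate 1 had a median skipping value of 0.39, and replicates 2 and 3 had 0.02 and 0.02, so the mean of 0.146 carried an SD of 0.215. With all 3 arrays, 129 skipping probes were called higher and 25 lower, against 13.3% and 15.1% of all probes, or 28.4% either way. Of neighbouring-exon junctions 7.79% were called higher and 6.84% lower in that fit. Without replicate 1, 351 skipping probes could be tested, 40 were called higher and 21 lower, and the median fell from 0.19 to 0.04. That is 11.4% and 5.98% of the skipping probes, where 8.49% and 7.41% of all 9001 probes were called in that fit. Of these, 38 and 14 were also called with all arrays. Most of the higher calls in S7E therefore came with 1 array, on which the mutant was in Cy5, while both other arrays had it in Cy3.

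**Figure D2:**
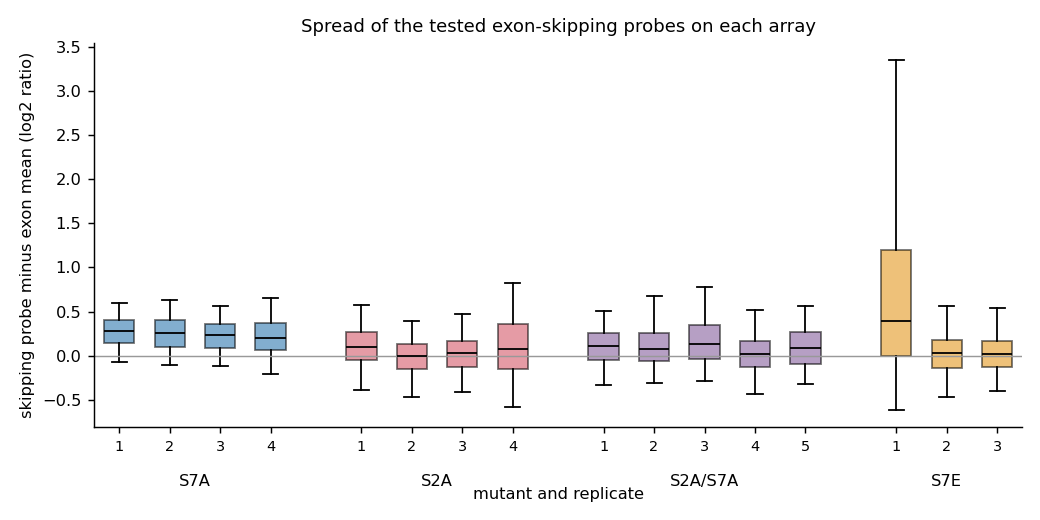
Spread of the skipping value, in log2 units, over the tested skipping probes on each array. Boxes span the quartiles with a line at the median, and whiskers run from the 5th to the 95th percentile. The S7A boxes sit above 0, and the box of S7E replicate 1 is far wider than any other, with a median absolute deviation of 0.742.

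The 4 mutants were compared with each other in the same fit, in all 6 pairs, with adjusted p-values over all probes within each pair. The F test for any difference among mutants called 115 skipping probes, 31.0% of those tested, and 30.4% of all probes. By kind, it called 16.5% of neighbouring-exon junctions and 44.2% of intron probes, so the share of skipping probes lay between them. S2A was below S7A at 72 skipping probes and above it at 11, where 9.18% and 13.2% of all probes were called, and the median difference was -0.20. S2A/S7A was below S7A at 60 and above it at 9, against 7.76% and 8.36%, with a median difference of -0.14. In both pairs the calls thus lay on the side of higher values in S7A. The neighbouring-exon junctions leaned the same way, with 10.9% lower and 3.14% higher in S2A than in S7A. In S2A/S7A against S7A 6.93% of them were lower and 3.16% higher. Intron probes leaned the other way, with 6.59% lower and 24.0% higher in S2A, and 7.87% and 14.0% in S2A/S7A. S2A/S7A and S2A differed little, with 7 probes higher in the double mutant and 5 lower (median 0.04, background 1.74% and 4.32%, 6.06% either way).

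S7E was below S7A at 66 skipping probes and above it at 14, against 7.80% and 10.3% of all probes (median -0.04). Without S7E replicate 1 these were 58 and 8, where 4.76% and 9.69% of all probes were called in that fit. S7E was above S2A at 32 probes and below it at 11 (median 0.13, background 5.67% and 6.33%), and without S7E replicate 1 at 18 and 13 (4.78% and 4.22% of all probes). Against S2A/S7A it was higher at 19 and lower at 17 (median 0.10, background 5.96% and 3.49%, 9.45% either way), and without that array at 13 and 23 (6.14% and 2.66%). The side on which most calls against S2A/S7A lay thus turned when 1 array was removed.

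Several of these counts rested on single arrays. Without S7A replicate 2 the calls in either direction fell to 50 between S2A and S7A, 38 between S2A/S7A and S7A, 41 between S7E and S7A, and 75 in the F test. Without S7A replicate 1 they were 55 between S2A and S7A and 49 between S7E and S7A. Without S2A replicate 3 they were 54 between S2A and S7A and 6 between S2A/S7A and S2A, and without S2A replicate 2 the latter was also 6. Without S7A replicate 4 it was 20. Without S7E replicate 2 or 3 the calls between S7E and S2A were 68 and 70. Without S2A/S7A replicate 1 or 2 those between S7E and S2A/S7A were 19 each. Without S7E replicate 1, 351 skipping probes were tested. The calls then rose to 131 between S2A and S7A, 37 between S2A/S7A and S2A and 116 between S2A/S7A and S7A. The share over all probes also differs between such fits, and is not given here for each. In S7A 11.0% of all probes were called higher with all arrays and 14.0% without S7E replicate 1. The changes in these counts are therefore not read as particular to the skipping probes.

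A skipping value can move because the skipping probe moved or because the exon probe of the gene did. Of the 150 probes called higher in S7A, 90 were also called higher as deposited, without the exon probe, and in 44 the exon mean of the gene was called lower. Both held for 10, and neither for 26. In S2A, by contrast, 15 of 49 were called higher as deposited and in 33 the exon mean was lower, and in S2A/S7A the counts were 21 and 55 of 70. In S7E they were 81 and 74 of 129, and 13 and 29 of 40 without replicate 1. With all arrays in the fit, the same split held over all 371 tested probes, called or not. Of these the deposited skipping probe was called higher for 38.8% in S7A, 16.7% in S2A, 23.5% in S2A/S7A and 46.9% in S7E, and the exon mean was called lower for 17.3%, 33.7%, 38.0% and 29.6%. The skipping value is the difference of both, and among the probes called higher both shares were larger in each mutant, at 90 of 150 and 29.3% in S7A, 30.6% and 67.3% in S2A, 30.0% and 78.6% in S2A/S7A, and 62.8% and 57.4% in S7E. These S7E shares include replicate 1. Without it the order among the probes called higher in S7E turned, to 13 and 29 of 40. Over all genes tested the exon mean was called lower for 16.6% in S7A, 27.1% in S2A, 27.7% in S2A/S7A and 27.6% in S7E (25.2% without replicate 1).

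By the deposited values of the 371 probes the medians of the mutants came in the same order, but S7E rather than S7A had the most probes called higher. In S7A 144 were called higher and 10 lower, against 16.9% and 21.5% of 14476 probes of all kinds, with a median of 0.25. In S2A 62 and 63 were called, against 25.9% and 26.4% (52.3% either way), with a median of 0.00. In S2A/S7A they were 87 and 54 (28.7% and 30.5%, median 0.11), and in S7E 174 and 49 (28.2% and 26.6%, median 0.23), or 50 and 44 of 351 without replicate 1 (18.8% and 22.6% of all probes in that fit). Without an exon probe as reference, the S2A skipping probes were called in both directions about equally.

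The junctions of neighbouring exons within the skipped span served as another reference, one that reads the joined form of the same exons. With it, 131 of 339 skipping probes were called higher in S7A and 4 lower, against 8.04% and 39.9% (47.9% either way) of 4439 skipping and intron probes given the same treatment. The S7A array medians on this reference were 0.14 to 0.22. Of the 139 probes called higher with the exon reference and tested here, 107 were called again and 138 kept their sign. In S2A 38 and 22 were called (background 21.0% each way, 42.0% in all), in S2A/S7A 59 and 18 (16.9% and 35.8%), and in S7E 115 and 29 (20.8% and 26.9%), or 34 and 33 of 320 without replicate 1 (15.8% and 18.5%). The S7E array medians were 0.31, 0.04 and -0.01.

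Skipping probes also followed the exon probes of their genes less closely than other junction probes did. Across the 371 tested probes, the correlation of the deposited skipping value with the exon value was 0.612 in S7A, 0.548 in S2A, 0.573 in S2A/S7A and 0.345 in S7E (0.550 without replicate 1). Across 4428 neighbouring-exon junctions it was 0.763 to 0.889. A change of 1 log2 unit at the exon probe went with 0.375 to 0.537 units at the skipping probe and with 0.831 to 0.956 units at the junction probe. Both members of each pair were read on the same arrays, and probes of a gene share its exon probe, so these are descriptions.

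**Figure D3:**
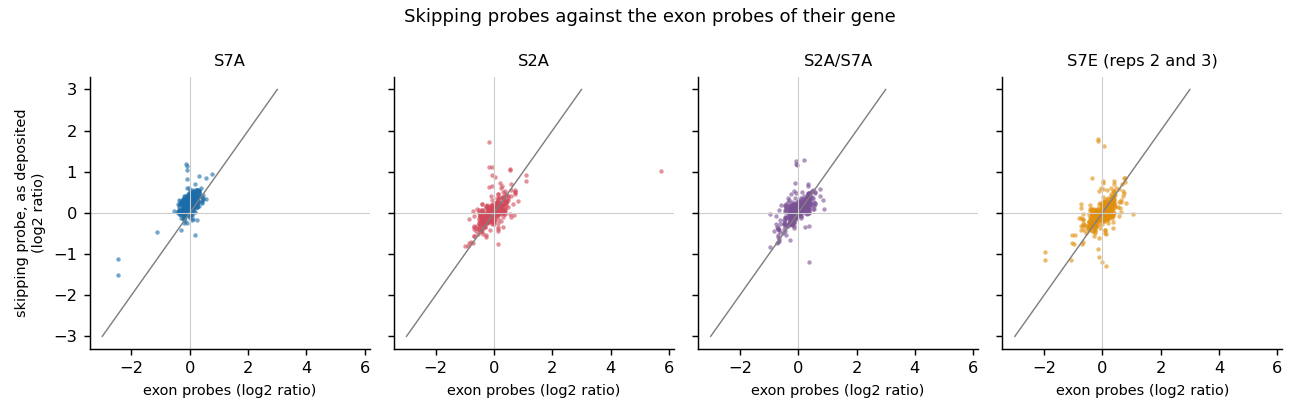
Deposited log2 ratio of each tested skipping probe (vertical) against the exon value of its gene (horizontal), both as means over the arrays of a mutant, with S7E drawn from replicates 2 and 3. The diagonal marks equal values. In S7A the cloud lies above the diagonal, and the point at an exon value of 5.74 in S2A is mug62 4-6.

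The shift in S7A was alike over the kinds of skipping junction. Probes that leave out 1 exon had a median of 0.23, with 89 of 228 called higher, those that leave out 2 had 0.24 (37 of 90), and those that leave out 3 or more had 0.29 (24 of 53). Joining exon 1 or a later exon made little difference, with medians of 0.24 and 0.24 and 70 of 170 and 80 of 201 called. In genes of 3 exons 25 of 59 were called higher, in genes of 4 or 5 exons 62 of 148, and in genes of 6 or more 63 of 164. Where the exon probe sat mattered little too, with medians of 0.29 inside the span, 0.28 on its left end, 0.23 on its right end and 0.21 outside it.

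A junction probe shares an exon end with the normal junctions at either side of the skipped span, and 343 skipping probes had both of those tested. Of 141 of them called higher in S7A, neither end junction was called higher for 112, 1 was for 20 (13 left, 7 right) and both were for 9. In S2A neither was for 27 of 40, in S2A/S7A for 39 of 59 and in S7E for 74 of 118 (22 of 33 without replicate 1). An end junction was thus called higher for 20.6% of the called probes in S7A, 32.5% in S2A, 33.9% in S2A/S7A and 37.3% in S7E (33.3% without replicate 1). Among the skipping probes not called higher, the shares were 11.9%, 10.2%, 11.3% and 11.1% (5.15% without replicate 1), lower in every mutant. The same exon mean was subtracted from a skipping probe and from its end junctions, so a lower exon value raises them together. Their calls are therefore not independent, and nothing is concluded from the higher share among called probes. Of single junctions over the array, 13.0%, 7.18%, 9.49% and 7.79% were called higher.

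Where a gene had several skipping probes they were not always called together, though like values can fall on both sides of the threshold. The pkp1 probes, for example, stood at 0.50 and 0.55 in S7A, with 1 called. Of 64 genes with several tested probes, 182 in all, 43 had at least 1 called higher in S7A and 12 had all of theirs called higher. In S2A these were 19 and 4, in S2A/S7A 22 and 5, and in S7E 37 and 15. The S7E counts were 16 and 5 of 61 genes without replicate 1. The median range between the probes of a gene was 0.15 in S7A, 0.17 in S2A, 0.12 in S2A/S7A and 0.36 in S7E (0.18 without replicate 1). Over all tested skipping probes the quartiles in S7A were 0.126 and 0.361.

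Some probes were called higher in every mutant. Of the 371, 119 were called higher in none, 157 in 1 mutant, 60 in 2, 19 in 3 and 16 in all 4, and 15 of 351 in all 4 without S7E replicate 1. The 16 are 4.31% of the skipping probes, where 1.13% of all probes and 0.813% of neighbouring-exon junctions were called higher in all 4. For lower calls the numbers were 321, 31, 14, 5 and 0 by limma, or 293, 33, 17, 8 and 0 of 351 without S7E replicate 1, where 2.89% and 2.32% of all probes were called lower in all 4. The mutants may share WT RNA, so these counts describe the calls and are not separate observations.

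Among the 16 was trm13 (SPAC1805.03c), which encodes a tRNA methyltransferase and has 4 exons. On the S7A arrays trm13 1-3 stood at 1.26, 1.43, 1.52 and 0.72, and on the S2A arrays at 0.72, 1.14, 0.87 and 0.12. On the S2A/S7A arrays it stood at 1.29, 1.49, 0.82, 1.76 and 1.02, and on the S7E arrays at 0.73, 2.08 and 1.68. All 16 arrays were above 0, the lowest being S2A replicate 4. The fitted means were 1.23 ± 0.16 (SE) in S7A, 0.71 ± 0.16 in S2A, 1.22 ± 0.14 in S2A/S7A and 1.41 ± 0.18 in S7E, with limma adjusted p of 3.8e-05, 0.0033, 1.2e-05 and 5.5e-05. The S7E mean was 1.67 without replicate 1. In S7A this is 2.35-fold. The exon value of the gene did not pass the test in any mutant (-0.10 to 0.16), so the probe itself moved.

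The other skipping probe of the gene, trm13 1-4, gave 1.15, 0.97, 1.31 and 1.47 in the same order, all called, and 1.81 in S7E without replicate 1. The normal junction of exons 1 and 2 moved as far, at 1.27 in S7A, 0.71 in S2A, 1.16 in S2A/S7A and 1.38 in S7E, with adjusted p of 2.9e-05, 0.0032, 1.8e-05 and 6.2e-05. Without S7E replicate 1 the last of these means was 1.69. The 3 probes that hold the end of exon 1, skipping or not, were thus higher in all 4 mutants. The junction of exons 2 and 3 stood at 0.09, -0.28, 0.12 and 0.02, called lower in S2A (limma adjusted p = 0.013), and that of exons 3 and 4 at -0.06, -0.32, -0.17 and -0.45, called lower in S2A (0.013) and S7E (0.0041, and 0.0821 without replicate 1). The probe of intron 2 was called lower in S2A, S2A/S7A and S7E, at -0.45, -0.41 and -0.38.

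dph5 (SPCC576.14), for an enzyme of diphthamide synthesis on elongation factor 2, behaved differently. The dph5 2-4 probe stood at 0.65, 0.85, 0.53 and 0.74 in S7A, at 1.60, 1.66, 1.60 and 0.35 in S2A, at 1.28, 1.19, 1.01, 1.10 and 1.52 in S2A/S7A, and at 1.08, 1.26 and 1.13 in S7E. Every array was above 0, and S2A replicate 4 was the low one again. The means were 0.69 ± 0.15 (adjusted p = 0.0027), 1.30 ± 0.15 (1.5e-05), 1.19 ± 0.13 (9.1e-06) and 1.11 ± 0.17 (0.00025) by limma. Without the replicate that stood apart the means were 1.61 in S2A and 1.06 in S7E. The neighbouring junctions of dph5 lay between -0.13 and 0.10 and none was called.

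Other probes called higher in all mutants and named by size included rpf2 1-3 and nrk1 3-5. rpf2 (SPAC926.08c) encodes a factor of 60S ribosome assembly. Its probe gave 0.92 in S7A, 0.77 in S2A, 0.67 in S2A/S7A and 0.84 in S7E, but as deposited 0.81, 0.04, 0.53 and 0.16, with exon values of -0.72 in S2A and -0.68 in S7E. nrk1 (SPBP22H7.06), for nicotinamide riboside kinase, gave 0.44, 0.42, 0.33 and 0.44, and as deposited its probe was at 0.28, 0.06, -0.37 and 0.07. Both were still called in S7E without its replicate 1, at 1.09 and 0.52. The moves of rpf2 and nrk1 thus sat mostly on the probe in S7A and largely on the exon value in S2A and S7E. The dye term of nrk1 3-5 passed, at 0.32 ± 0.08 (limma adjusted p = 0.045). Without that term its means were 0.44, 0.42, 0.30 and 0.39, and all were still called.

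**Figure D4:**
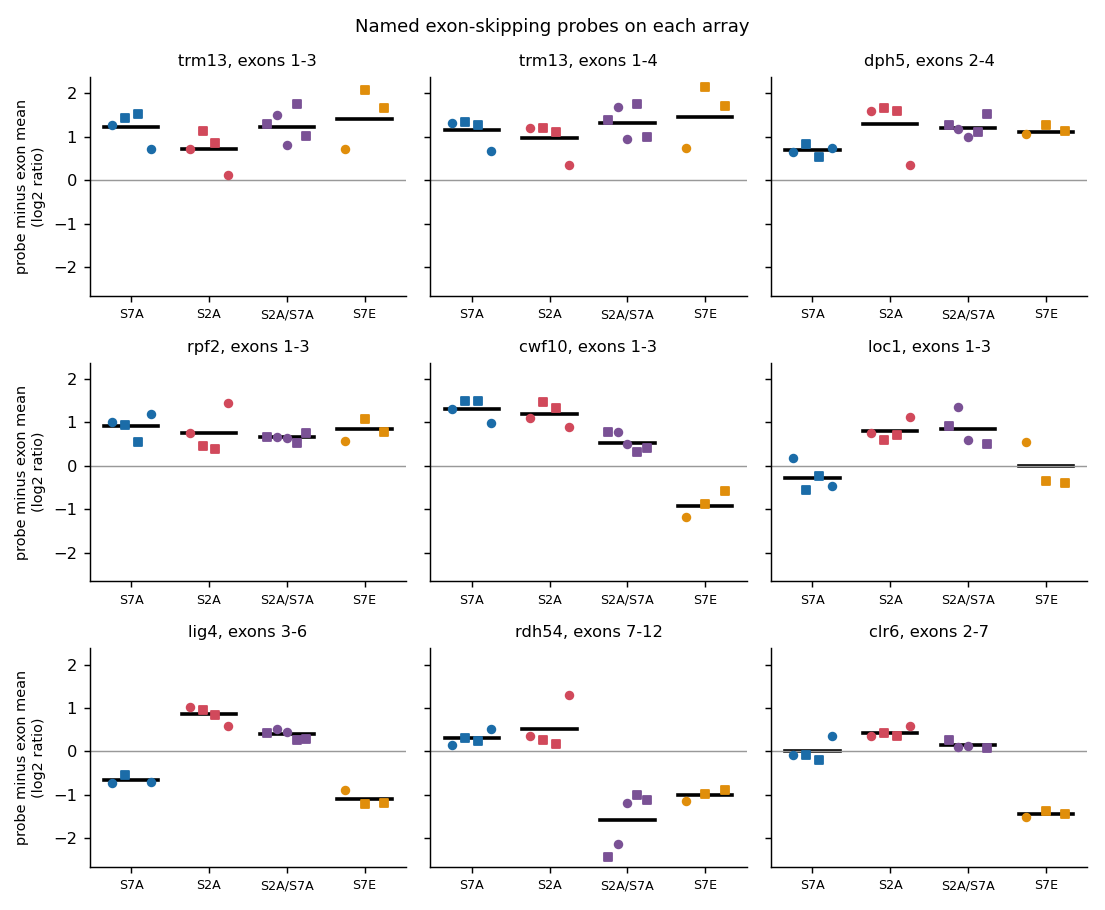
Skipping value, in log2 units, on each array for 9 named probes, 1 panel a probe, with circles for the mutant in Cy5 and squares for Cy3 and a black line at the fitted mean of each mutant. The S2A and S2A/S7A arrays of loc1 1-3 lie above 0, and lig4 3-6 and cwf10 1-3 lie above 0 in some mutants and below 0 in others.

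Some probes moved in opposite directions in different mutants. cwf10 (SPBC215.12) encodes the GTPase of the U5 snRNP, a core part of the spliceosome, and has 4 exons. The cwf10 1-3 probe stood at 1.31, 1.49, 1.49 and 0.99 in S7A, at 1.11, 1.46, 1.33 and 0.89 in S2A, and at 0.78, 0.79, 0.50, 0.32 and 0.41 in S2A/S7A. On the S7E arrays it stood at -1.17, -0.88 and -0.58. All arrays of the 3 alanine mutants were above 0 and all S7E arrays below it.

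The fitted means of cwf10 1-3 were 1.32 ± 0.10, 1.20 ± 0.10, 0.54 ± 0.09 and -0.91 ± 0.12, with limma adjusted p of 4.2e-07, 9.4e-07, 0.00033 and 5.4e-05. S7E differed from S7A by -2.23 ± 0.15 (adjusted p = 7.8e-07, and -2.13 without S7E replicate 1), and S2A/S7A from S7A by -0.78 ± 0.14 (adjusted p = 0.0012). Without S7E replicate 1 the S7E mean was -0.82 (adjusted p = 0.0011). The exon value lay between -0.14 and -0.07, and the junctions of exons 1 and 2 and of 2 and 3 were not called in any mutant. The change was thus on the skipping probe.

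lig4 (SPCC1183.05c), for the DNA ligase of non-homologous end joining, has 10 exons. The lig4 3-6 probe, which leaves out 2 exons, stood at -0.72, -0.54 and -0.70 in S7A, where replicate 3 has no value, and at 1.03, 0.95, 0.85 and 0.59 in S2A. In S2A/S7A it was at 0.44, 0.52, 0.44, 0.28 and 0.28, and in S7E at -0.89, -1.21 and -1.19. No array of S7A or S7E overlapped one of S2A or S2A/S7A.

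The means of lig4 3-6 were -0.66 ± 0.09 in S7A, the lowest called value of that mutant, 0.85 ± 0.07 in S2A, 0.40 ± 0.07 in S2A/S7A and -1.09 ± 0.09 in S7E (limma adjusted p = 8e-05, 2.4e-06, 0.00046 and 1.8e-06). The last was -1.21 without replicate 1. S2A differed from S7A by 1.51 ± 0.12 (adjusted p = 7.4e-07) and S7E from S2A by -1.94 ± 0.12 (1.4e-07, and -2.06 without S7E replicate 1). The double mutant differed from S7A by 1.06 ± 0.11 (2.7e-05) and from S2A by -0.46 ± 0.10 (0.015). As deposited the probe was at -0.54, 0.88, 0.21 and -1.0, so these moves too sat on the probe.

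clr6 (SPBC36.05c), for a class I histone deacetylase, has 14 exons and 8 skipping probes, of which 7 were tested. The clr6 2-7 probe stood at -1.52, -1.38 and -1.45 in S7E, and between -0.19 and 0.59 on every array of the other mutants. Its S7E mean was -1.44 ± 0.09 (2.71-fold, limma adjusted p = 2.5e-07), and -1.36 without replicate 1. In S2A it was 0.43 ± 0.07 (adjusted p = 0.00073), in S2A/S7A 0.14 (adjusted p = 0.18) and in S7A 0.00 (adjusted p = 0.99). The normal junction of exons 6 and 7, which shares the start of exon 7, stood at -1.0 in S7E (adjusted p = 2.1e-06, and -0.92 without replicate 1) and 0.38 in S2A (0.0013).

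Other clr6 probes did not follow it. In S7A 4 were called higher, namely 2-9 at 0.41, 2-10 at 0.42, 4-6 at 0.36 and 6-11 at 0.41, while 1-8 at 0.22 (adjusted p = 0.063) and 6-8 at 0.20 (adjusted p = 0.52) were not. In S7E the remaining tested probes lay between -0.04 and 0.12 apart from 6-8, whose arrays were at 2.08, 0.03 and -0.17. Its mean of 0.74 fell to 0.02 without replicate 1. The 1-8 probe had its highest mean in S2A/S7A, at 0.57 (adjusted p = 0.00011). Its dye term passed, at 0.37 ± 0.09 (limma adjusted p = 0.042), and without that term this mean was 0.57 (adjusted p = 0.0023).

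**Figure D5:**
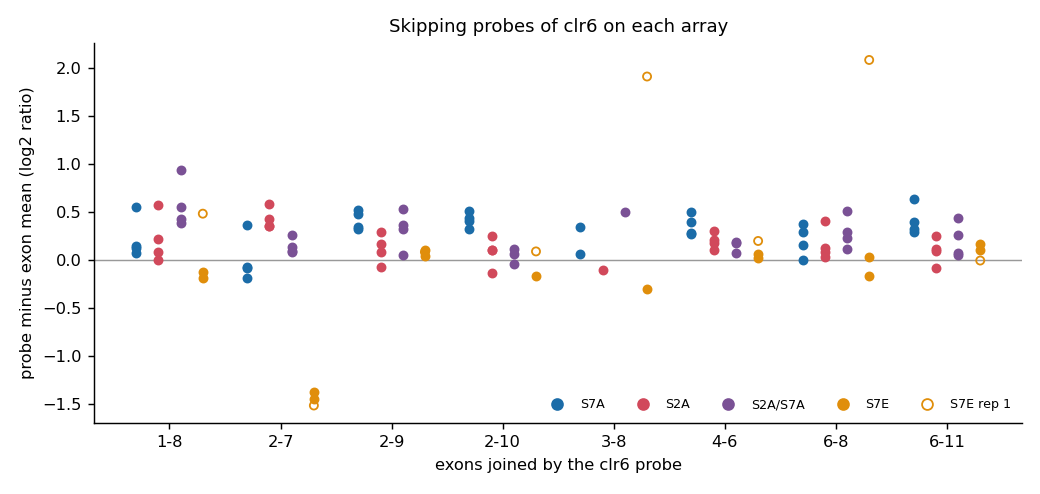
Skipping value, in log2 units, of the 8 clr6 probes on each array, by mutant, with an open circle for S7E replicate 1. The 2-7 probe lies near -1.44 in S7E only, and 6-8 has its single high point, 2.08, on S7E replicate 1.

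rdh54 (SPAC22F3.03c), a translocase of recombination with 15 exons, was lowest in the double mutant. The rdh54 7-12 probe stood at -2.43, -2.14, -1.19, -0.99 and -1.13 in S2A/S7A and at -1.14, -0.99 and -0.89 in S7E. It stood at 0.16, 0.30, 0.25 and 0.51 in S7A and at 0.35, 0.25, 0.18 and 1.30 in S2A. The double mutant thus lay below 0 on all arrays and both single alanine mutants above it.

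The S2A/S7A mean of rdh54 7-12 was -1.57 ± 0.19 (2.96-fold, limma adjusted p = 2.2e-05), and it differed from S7A by -1.87 ± 0.29 (adjusted p = 0.00044) and from S2A by -2.09 ± 0.29 (0.00076). In S7E the mean was -0.99 ± 0.25 (adjusted p = 0.0086), and -0.86 with an adjusted p of 0.0738 without replicate 1. S7A (0.30) and S2A (0.52) did not pass. The second rdh54 probe, 7-10, gave -0.58 in S2A, with an adjusted p of 7.7e-06. In S2A/S7A it gave -0.31 (0.0005). Its deposited values there were -0.03 and 0.07 and the exon value was higher. Within the 7-12 span, every normal junction was also called lower in S2A/S7A, at -0.22 to -0.54. The intron probes there lay between -0.47 and -1.21, all called lower. The remaining tested probe, 8-12, was not called lower in any mutant. In S7E rdh54 8-12 stood at 0.99, opposite to 7-12, and at -0.42 without replicate 1 (limma adjusted p = 0.23).

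loc1 (SPAC1751.04), for a factor of ribosome assembly, was higher in both strains that carry the serine 2 change. The loc1 1-3 probe stood at 0.77, 0.60, 0.71 and 1.14 in S2A and at 0.91, 1.36, 0.59 and 0.51 on the 4 S2A/S7A arrays that have a value. The means were 0.80 (limma adjusted p = 0.00064) and 0.84 (0.00031), against -0.27 in S7A (0.17) and -0.01 in S7E (0.98), or -0.24 without replicate 1 (0.44). S2A was above S7A by 1.07 ± 0.19 (adjusted p = 0.0013) and the double mutant above S7A by 1.11 ± 0.19 (0.0015).

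The other lower probes in S2A and S2A/S7A split by whether the probe or the exon value moved. vma2 (SPAC637.05c), a subunit of the vacuolar proton pump, had its 1-5 probe at -0.70, -0.48, -0.56 and -0.58 in S2A and at -0.66, -0.61 and -0.57 in S7E. The means were -0.58 (adjusted p = 3.5e-05) and -0.63 (8e-05), against -0.22 in S2A/S7A (0.017) and -0.07 in S7A (0.54), and the probe moved as deposited (-0.44 and -0.53). Without replicate 1 the S7E mean was -0.65. Its 1-3 and 1-4 probes gave -0.48 and -0.40 in S2A and -0.50 and -0.47 in S7E, or -0.56 and -0.57 without replicate 1.

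nep1 (SPBC17D11.01), a protease of the NEDD8 modifier, had its 1-3 probe at -0.50 in S2A (limma adjusted p = 4.2e-05), -0.39 in S2A/S7A (0.00012) and -0.69 in S7E (1.4e-05), and at -0.02 in S7A (0.86). Without replicate 1 the S7E mean was -0.59. As deposited it was at -0.38, -0.67 and -0.56 in those 3 mutants. spn2 (SPAC821.06), a septin, had its 2-5 probe at -0.70, -0.70, -0.79 and -1.35 in S2A, with a mean of -0.89 (adjusted p = 0.0041), and at -0.52 in S2A/S7A (0.037). The S2A/S7A call was lost without S2A/S7A replicate 1, 2, 3 or 4 in turn, with adjusted p of 0.0529, 0.104, 0.145 and 0.102. In S7E spn2 2-5 was at 1.80, 0.11 and -0.05, with a mean of 0.67 that became 0.01 without replicate 1.

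In the remaining lower probes the exon value was higher, and the skipping probe as deposited was not called lower. They were pep3 2-4 of SPCC790.02 (vacuolar sorting), rsd1 3-5 of SPAC19G12.07c (an RNA-binding protein tied to splicing), ade2 1-3 of SPAC144.03 (adenylosuccinate synthetase) and thf1 1-3 of SPBC839.16. pep3 gave -0.71 in S2A and, on 2 arrays, -0.88 in S2A/S7A, with exon values of 0.68 and 0.87. rsd1 gave -0.68 in S2A and -0.94 in S7E, with exon values of 0.57 and 0.99, and -1.20 in S7E without replicate 1. ade2 gave -0.39 in S2A and -0.36 in S2A/S7A, and thf1 -0.56 in S2A/S7A, where its deposited probe was itself called higher, at 0.31 (limma adjusted p = 0.0038), below its exon value of 0.84. hem12 (SPCC4B3.05c), of heme synthesis, showed the reverse in S2A/S7A, where its 1-3 probe was at 0.97, 0.80, 1.06, 0.87 and 1.03. The exon value there was -0.98 and the deposited probe 0.02. The hem12 call was lost without S2A/S7A replicate 1 or 5 in turn, with limma adjusted p of 0.0554 and 0.0569.

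mpn1 and mug62 are the plainest cases of an exon value that moved. mpn1 (SPAC23C11.10), for an exonuclease that trims U6 RNA, had its 2-5 probe at 1.30, 1.29, 1.37 and 1.33 in S7A, and the exon value was -2.45 and the deposited probe -1.13. mug62 (SPAC22F3.04), named for its rise in meiosis, had its 4-6 probe at -5.02, -4.74, -4.89 and -4.26 in S2A, where the exon value was 5.74 and the deposited probe 1.01.

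The lowest S7A calls beside lig4 were cbp4 1-3 and cdc5 2-4. cbp4 (SPBC27B12.14), an assembly factor of mitochondrial complex III, stood at -0.22, -0.35, -0.17 and -0.86, with a mean of -0.40 (limma adjusted p = 0.011). Without replicate 4 that was -0.26 with an adjusted p of 0.089. cdc5 (SPAC644.12), a splicing factor bound to the spliceosome, stood at -0.07, -0.48, -0.43 and -0.00129, with a mean of -0.24 (0.022), and in S2A at 0.32 (0.0047). The cdc5 call in S7A was lost without S7A replicate 1, 2 or 3 in turn, with adjusted p of 0.0531, 0.130 and 0.0989. Its 2 Cy5 arrays lay near 0 and its 2 Cy3 arrays lower, and the dye term of the probe was 0.25 ± 0.07 (limma adjusted p = 0.084). The S7A mean, over 2 arrays of each dye, was also -0.24 without that term (adjusted p = 0.074).

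The highest S7E values all came from replicate 1. tsn1 1-4 of SPAC30.03c (translin) stood at 4.04, 0.64 and 0.58 and coq4 2-4 of SPAC1687.12c (ubiquinone synthesis) at 4.27, 0.10 and 0.17. plh1 4-9 and 4-7 of SPBC776.14 (triacylglycerol synthesis) had 4.21 and 4.13 on replicate 1 and 0.16 to 0.28 on the others, and ngl1 2-4 of SPBC1709.14 had 4.29 against 0.40 and 0.40. Without replicate 1 only tsn1 1-4 among these 5 was still called, at 0.59 (limma adjusted p = 0.00018), and the others lay between 0.15 and 0.36 with adjusted p of 0.185 to 0.667. hus1 2-4 of SPAC20G4.04c (a checkpoint clamp) was low in the same way, at -2.93, -0.06 and -0.11, and at -0.14 without replicate 1 (adjusted p = 0.30).

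The probes with the largest excess of S7E over another mutant rested on that array too. SPBC3E7.07c 1-5 stood at 3.28, 0.50 and 0.46, ddx27 1-3 of SPAC30D11.03 (an RNA helicase) at 3.00, 0.62 and 0.67, and rmt1 6-8 of SPAC890.07c (an arginine methyltransferase) at 2.25 and 0.55 with no value on replicate 2. The excess of S7E over S7A was 1.66 for SPBC3E7.07c 1-5 (limma adjusted p = 0.013) and 0.69 without S7E replicate 1 (0.0018). For ddx27 1-3 it was 1.20 (0.042), and 0.32 without that array (0.18), and leaving out any of 10 other arrays in turn also took its adjusted p above 0.05 (0.0502 to 0.0928). Against WT the S7E means without replicate 1 were 0.54 and 0.60, both called. As a case that did not depend on it, tsn1 3-5, chosen after its values were seen, stood at 0.85, 0.99 and 0.75 in S7E (mean 0.93, adjusted p = 8.3e-06, and 1.13 without replicate 1) and at 0.64 in S7A (4.1e-05).

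Skipping probes were then read by gene group. Of all 371 tested, 40.4% were called higher in S7A, 13.2% in S2A, 18.9% in S2A/S7A and 34.8% in S7E (11.4% without replicate 1), against 11.0%, 13.1%, 12.5% and 13.3% (8.49%) of all probes, and the counts below stand beside these shares. The spliceosome list had 16 probes in 8 genes, of which 4 were called higher and 1 lower in S7A, 3 and 2 in S2A, 1 and 5 in S2A/S7A, and 0 and 2 in S7E, with or without replicate 1 (1 higher at an unadjusted limma p under 0.05). Their medians of 0.17, 0.01, -0.05 and -0.01 lay below those of all 371 tested probes (0.24, 0.05, 0.08 and 0.19). In S7A the higher calls beside cwf10 were lsm3 1-3 at 0.34 (limma adjusted p = 0.0066), of a ring protein bound to U6 RNA, and srp2 2-6 and 2-7 at 0.25 and 0.26 (0.021 and 0.027), of an SR splicing protein.

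The exon values of the splicing machinery's genes moved in both directions. Of 88 such genes tested, 5 were called higher and 14 lower in S7A, against 18.0% and 16.6% of all 5171 genes tested. In S2A they were 27 and 16 (31.3% and 27.1%), in S2A/S7A 38 and 12 (35.1% and 27.7%), and in S7E 35 and 14 (33.5% and 27.6%), or 24 and 12 without replicate 1 (23.1% and 25.2%). The part of these levels in the skipping values was not tested.

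Genes of the cytoskeleton and cell division gave 8 tested probes in 6 genes, of which limma called 5 higher in S7A. None was called higher in S2A or S2A/S7A, where 0 and 2 had an unadjusted p under 0.05, and 1 was lower in S2A/S7A. In S7E 1 was called higher and 1 lower, against 0 and 1 without replicate 1 (1 higher at an unadjusted p under 0.05). cdc4 3-5, of a myosin light chain, stood at 0.28, 0.51, 0.35 and 0.43 in S7A (mean 0.39, limma adjusted p = 7.2e-05) and between -0.15 and 0.12 on every other array. The others were gtb1 1-4 (gamma-tubulin, 0.24), arc4 2-4 (the Arp2/3 complex, 0.21), and dlc2 2-4 and 1-4 (a dynein light chain, 0.24 and 0.25). The list's S7A median, 0.22, was near that of all tested probes.

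Vesicle traffic and small GTPases gave 20 tested probes in 13 genes, with 6 called higher and 0 lower in S7A (median 0.18). These included sec61 3-6 (the protein-conducting channel of the endoplasmic reticulum, 0.51), arf6 2-4 (0.34), vps35 3-5 and 3-6 (the retromer, 0.27 and 0.23) and vti1 1-5 (a SNARE, 0.25). In S2A 2 were called higher, in S2A/S7A 3 and in S7E 6, with 4 lower, but without S7E replicate 1 limma called 0 of 19 in S7E, where 0 were higher and 1 lower at an unadjusted p under 0.05. The 4 lower calls in S7E were all in ypt5, an endosomal Rab GTPase with 5 probes, at -0.59, -0.50, -0.47 and -0.54, and without replicate 1 the 5 ypt5 probes lay between -0.24 and 0.03.

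The ubiquitin and proteasome list had 9 tested probes, of which 2 were called higher in S7A, 0 in S2A (0 also at an unadjusted limma p under 0.05), 2 in S2A/S7A and 5 in S7E. Of the 5, 0 were still called without replicate 1. In that fit 2 of the list were higher and 3 lower at an unadjusted limma p under 0.05. Of these, skp1 1-4 was called lower, at -0.42 (limma adjusted p = 0.0499). The 2 called higher in S7A were cul3 3-6 (a cullin, 0.36, limma adjusted p = 0.04) and rpn10 2-4 (a proteasome subunit, 0.23, 0.025). Of the ribosomal protein genes only rps13 had skipping probes, 3 in all, and its 1-3 probe was called higher in S7A at 0.23 (0.0071). With so few probes a list, no count is read as particular to its group.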

How the data were processed

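Per the file headers and the labels, the deposited values are 1 log ratio per probe for each of 16 two-colour Agilent arrays. Per the series record the mutants were set relative to WT, so mutant over WT is likely, as is base 2, and neither is stated. Arrays of opposite dyes correlated positively (the lowest r of any pair was 0.118), so the values are already turned to 1 direction. The medians of the arrays lie between -0.0265 and 0.0267, and whether the authors centred them, and how else they normalized them, is not stated in them.

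From the deposited values, each gene's exon-probe mean (1 probe for nearly all genes) was subtracted from each skipping, junction and intron probe on each array. limma (version 3.58.1, R 4.3.3) fitted 4 mutant means and a probe-wise dye term, centred between the dyes, to all 16 arrays with lmFit and eBayes. All tests were two-sided, with Benjamini-Hochberg adjustment over all probes tested in a comparison, and 0.05 as the threshold. The dye term passed for 13 skipping probes, 11 of them higher with the mutant in Cy5, against 2.43% of all probes. The same fit was run on the deposited log2 values of all probes, on exon values of genes, and against the mean of the neighbouring-exon junctions within the span. That last table was extended to intron probes minus their own junction, which the design had not foreseen, so that p-values are adjusted over more than the skipping probes. Python 3.11.15 with pandas 2.3.3, numpy 2.4.6 and matplotlib 3.10.9 did the remaining steps. The fit was tested on simulated data. Deviations from the mutant means correlated at 0.122 to 0.393 in the 4 same-numbered pairs of S7A and S2A. These numbers were taken as pairing, from the data and not from the labels. Those pairs also share their dye, which was not removed first, so dye and pairing cannot be told apart there. In each of the 5 other combinations of mutants the lowest correlation was under 0.1 (-0.304 to 0.0238).

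The members, gene lists and tests were chosen with earlier results of these data known. Named probes are, per mutant, the 6 highest and 6 lowest called probes with 1 sign on every array, the 2 highest and 2 lowest per pair of mutants, the 6 smallest p-values of the F test, 6 probes called in 1 direction in all mutants, and the gene with most probes, 42 probes in 31 genes, some of which are not reported here. Members of the gene lists are named beside their counts. Symbols came from RefSeq's gene table of assembly ASM294v3, in which 262 of 275 genes matched and 240 had a symbol. The build behind the probe names is not given, so no coordinates are printed, and probe sequences were not used here. The alternatives tried were the dye term, centring, scaling, array weights, separate fits, a replicate block, arrays left out, repeated values, complete probes, both other references and a robust trended fit.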

Additional observations from a re-analysis of the deposited data

Results flagged for a closer look

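Among the named probes, 5 of the 61 groups of 4 or 5 arrays held 1 array far from the others by Dixon's test, where chance gives about 1 in 20. Groups of 3 arrays, which S7E has, were not tested. In S2A, replicate 4 stood at 0.365 at trm13 1-4, where the other arrays lay between 1.11 and 1.21, and at 0.348 at dph5 2-4, where the others lay between 1.60 and 1.66. It stood at -1.35 at spn2 2-5, where the others lay between -0.788 and -0.701. In S7A, replicate 4 stood at 0.685 at trm13 1-4, where the others lay between 1.27 and 1.34. These 4 values came from 2 of the arrays that correlated less with their group. The last was S7A replicate 1 at clr6 1-8, at 0.547 against 0.069 to 0.141. The causes were not tested.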

How the results depend on the processing

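Of the values of named probes under the alternatives, 2962 kept their direction and side of the threshold, 85 were no longer past it, 28 came past it, 17 moved and 13 reversed. The counts in either direction were less stable. With S7A replicate 4, S2A replicate 4 and S7E replicate 1 left out, they were 237 in S7A (153 with all arrays), 122 in S2A (72), 179 in S2A/S7A (93), 86 in S7E (154), 167 between S2A and S7A (83), 58 between S2A/S7A and S2A (12), 149 between S2A/S7A and S7A (69), 125 between S7E and S7A (80) and 203 in the F test (115). As deposited they were then 259 in S7A (154), 227 in S2A/S7A (141) and 135 in S7E (223), and against neighbouring junctions 131 in S2A/S7A (77) and 85 in S7E (144). With array weights they were 266 in S7A, 124 in S2A, 102 in S7E, 198, 44, 144 and 157 in the first 4 pairs, 69 between S7E and S2A (43) and 231 in the F test, 276 for S7A as deposited, 233 for S7A (135) and 101 for S2A (60) against neighbouring junctions, and 43 splicing factor genes in S7A (19). Centred arrays gave 235 in S7A and 132 in S2A/S7A against neighbouring junctions, and scaled arrays 35 splicing factor genes in S7A. Each mutant fitted alone gave 145 in S2A/S7A, 268 in S7E, 254 for S7A as deposited, 226 for S7E against neighbouring junctions and 27 splicing factor genes in S2A (43). Without the exon reference the counts were 125 in S2A and 141 in S2A/S7A. The S7A median was 0.199 with neighbouring junctions as the reference.

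Leaving out 1 array at a time gave 97 to 206 calls in S7A, 46 to 114 in S2A, 71 to 143 in S2A/S7A, 61 to 164 in S7E, 50 to 131 between S2A and S7A, 6 to 37 between S2A/S7A and S2A, 38 to 116 between S2A/S7A and S7A, 41 to 95 between S7E and S7A, 31 to 70 between S7E and S2A, 19 to 46 between S7E and S2A/S7A and 75 to 161 in the F test. As deposited they ran from 111 to 235 in S7A, 94 to 141 in S2A, 117 to 200 in S2A/S7A and 94 to 233 in S7E, and against neighbouring junctions from 86 to 181, 41 to 94, 53 to 115 and 67 to 147. Splicing factor genes ran from 14 to 26 in S7A, 35 to 48 in S2A, 43 to 57 in S2A/S7A and 36 to 52 in S7E. The medians ran from 0.220 to 0.287 in S7A, 0.0326 to 0.0583 in S2A, 0.0672 to 0.122 in S2A/S7A and 0.0408 to 0.245 in S7E. Shares over all probes differ between these fits too and are not given here for each.

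Replicate numbers were taken as pairing for S7A and S2A only, where dye and pairing cannot be told apart. The block itself was the replicate number over all 16 arrays, those of S2A/S7A and S7E included. With a replicate block 72 probes were called between S2A and S7A (83 without it, 67 shared), and of 19 named probes with that difference called, dph5 2-4 (0.61, adjusted p = 0.051) and thf1 1-3 (-0.38, adjusted p = 0.077) lost it. The other calls of the block were 22 between S7E and S2A/S7A (36), and 141 higher and 3 lower in S7A, 52 and 23 in S2A, 61 and 18 in S2A/S7A and 84 and 21 in S7E.

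All 13 reversals came from dropping the exon reference. The deposited values were then 0.17 for ade2 1-3, 0.31 for thf1 1-3, 0.094 for pep3 2-4, -0.37 for nrk1 3-5, -0.16 for clr6 2-7 and -0.086 for clr6 6-11 in S2A/S7A, 1.01 for mug62 4-6, -0.20 for clr6 2-10, -0.091 for clr6 4-6 and -0.20 for clr6 6-11 in S2A, -1.13 for mpn1 2-5 and -1.51 for mpn1 3-5 in S7A, and 0.049 for rsd1 3-5 in S7E. They follow from the reference, since the exon value moved further than the probe. The causes of the other changes were not tested. The number of arrays, 3 in S7E, and unknown signal over background limit every value.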
